A study of Schizosaccharomyces pombe with 4 samples.

Results

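The mRNAs described here encode the proteins of the cytosolic ribosome of fission yeast (Schizosaccharomyces pombe), as recovered with Mkt1 by CRAC. In CRAC (UV cross-linking and analysis of cDNA), living cells are irradiated, a tagged protein is purified under stringent conditions, and RNA fragments that stay covalently attached are sequenced as cDNA. Members were the genes whose name was rpl, rps or rpp followed by digits and that stood alone in the gene field of a cDNA. RNase P and MRP subunits that share the rpp prefix were left out by their annotated product. The annotation held 137 such genes on chromosomes I to III, and 93 of them were named alone by at least 1 of the 61252 distinct cDNAs, by 883 cDNAs in all.

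The tagged strain (Mkt1-HTP) was h+ and carried mkt1-HTP-KanR, that is, Mkt1 fused to an HTP tag for purification. The negative control was the parental strain without the tag. Both strains shared the h+ mating type, an ade6+ reporter at otr1R(Sph1), and the markers ura4D18, leu1-32 and ade6-210. All cells were in exponential growth in tryptophan-free PMG medium (32 °C) and received UV light for 42.5 s. There were 2 libraries per strain, named as biological replicates by the submitters, with 24468 and 26899 distinct cDNAs in Mkt1-HTP libraries and 1743 and 8142 in control libraries.

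Ribosomes consist of a large (60S) and a small (40S) subunit, each an assembly of rRNA and many small basic proteins made in near-equal amounts. The large subunit bears a flexible stalk of acidic P proteins, anchored by rpp0, which recruits the GTPases of translation. Ribosomal protein mRNAs are short, abundant and heavily translated in growing yeast, and many are encoded by duplicated genes whose products are nearly the same protein. Mkt1 is a protein that acts on RNA after transcription, and the comparison with the untagged strain asked which RNAs it contacts.

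Few stretches of ribosomal protein mRNA were covered repeatedly in both Mkt1-HTP libraries. In 11 stretches, at least 3 cDNAs of each Mkt1-HTP library overlapped, and 10 of these stretches lay in coding sequence. The first set of sequences below gives 4 of them, because they are the places at which the replicates met. They are written 5′ to 3′ as DNA of the mRNA strand, from the RefSeq genome of build ASM294v3, and were chosen after the values were seen.
rpl2301: cttcggcactggtgcacgtcttaatcgtct
rpl1502: tccattggtaagaagtctcgtggtatcggc
rpl3201: ctctgatgtcgaacttttgttgatgcacaa
rpl8: gttcttttgggagaagtttataattggcgt

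The rpl2301 stretch (chrI:3179841-3179870, minus strand) lies in the coding sequence of L23 and was covered by up to 14 and 5 cDNAs in Mkt1-HTP libraries and by 0 in either control library. The rpl1502 stretch (chrI:2203822-2203851, minus strand, coding sequence of eL15) was covered by up to 8 and 5 cDNAs in Mkt1-HTP libraries and by 0 in control libraries. The rpl3201 stretch (chrII:4352123-4352152, plus strand, coding sequence of eL32) was covered by up to 6 and 4 cDNAs in Mkt1-HTP libraries and by 0 in control libraries. The Mkt1-HTP cDNAs of rpl1502 formed 3 and 1 groups of near-identical intervals (starts and ends each within 3 nt), and those of rpl3201 formed 3 and 2. They thus came from few distinct fragments. The rpl8 stretch (chrII:2046376-2046405, plus strand) was the only one of the 11 in a 3′ UTR. It was covered by up to 21 and 5 cDNAs in Mkt1-HTP libraries, against 1 and 0 in control libraries.

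The bases at which cDNAs lost a nucleotide mark positions of possible cross-linking in CRAC. The second set gives the most often deleted base of each of the 5 ribosomal protein genes with a base deleted in 6 or more cDNAs of a library, with the deleted base in capitals. They are shown because each came from 1 library only.
rpl901: ctattctatcatTaacaacatgatt
rps1502: ccttccgtacctTcgcctatcgtgg
rpl13: tgctcgcgctgcTttccaaaagaag
rpl401: ttctgctgaatcTtggggtacaggt
rps2502: ctgaacgcggtgTcatccaaaaagt

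The rpl901 base (within chrI:2283973-2283997, minus strand) was missing from 14 of the 14 cDNAs that covered it in Mkt1-HTP replicate 2, and no cDNA covered it in the other 3 libraries. The rps1502 base (within chrI:3868878-3868902, minus strand) was missing from 8 of 10 cDNAs in Mkt1-HTP replicate 1 and was not covered elsewhere. The rpl13 base (within chrI:1711783-1711807, plus strand) was missing from 8 of 8 cDNAs, and the rpl401 base (within chrII:2143322-2143346, plus strand) from 8 of 9 cDNAs, in Mkt1-HTP replicate 2 only. The rps2502 base (within chrI:4208583-4208607, minus strand) was missing from 7 of 10 cDNAs in Mkt1-HTP replicate 1, again with no cover elsewhere. All 5 sites lie in coding sequence. The cDNAs over each site formed only 1 or 2 groups of near-identical intervals (starts and ends each within 3 nt), so they came from few distinct fragments. A deletion within a run of equal bases, as in rpl901, rps1502, rpl13 and rpl401, cannot be placed within the run.

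Ribosomal protein mRNAs were a small part of the RNA recovered with Mkt1. They contributed 393 and 445 cDNAs in Mkt1-HTP libraries, against 10 and 35 in control libraries. Of all distinct cDNAs this was 1.61% (Wilson 95% interval 1.46 to 1.77) and 1.65% (1.51 to 1.81) in Mkt1-HTP libraries, against 0.574% (0.312 to 1.05) and 0.430% (0.309 to 0.597) in control libraries. The share was thus higher in both Mkt1-HTP libraries, 1.63% ± 0.034 against 0.502% ± 0.102 (mean ± SD, n = 2 each). The exact permutation test gave p = 0.33 (two-sided), the smallest that 2 libraries against 2 allow. These intervals, and all others below, cover counting error only.

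Set against mRNA alone, the direction turned. Ribosomal protein mRNAs held 4.45% (4.04 to 4.90) and 5.20% (4.75 to 5.69) of the cDNAs of protein-coding genes in Mkt1-HTP libraries, against 8.93% (4.92 to 15.7) and 8.66% (6.30 to 11.8) in control libraries. The means were 4.83% ± 0.53 in Mkt1-HTP libraries and 8.80% ± 0.19 in control libraries (SD, n = 2 each), a difference of -3.97 percentage points (two-sided exact permutation p = 0.33). Without the 11 genes that passed the edgeR test as higher in Mkt1-HTP, none of them a ribosomal protein gene, the share was 8.31% and 9.84% in Mkt1-HTP libraries, against 10.8% and 9.16% in control libraries. Those genes were chosen for being high in Mkt1-HTP, so leaving them out must raise the share there more than in the control, and the overlap of the groups is in part built in. That alternative was added after the data were seen. Without cDNAs whose sequence also occurs elsewhere in the genome, the share was 4.21% and 4.89% in Mkt1-HTP libraries, against 3.81% (4 of 105 cDNAs) and 8.50% in control libraries, and the groups overlapped.

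**Figure D1:**
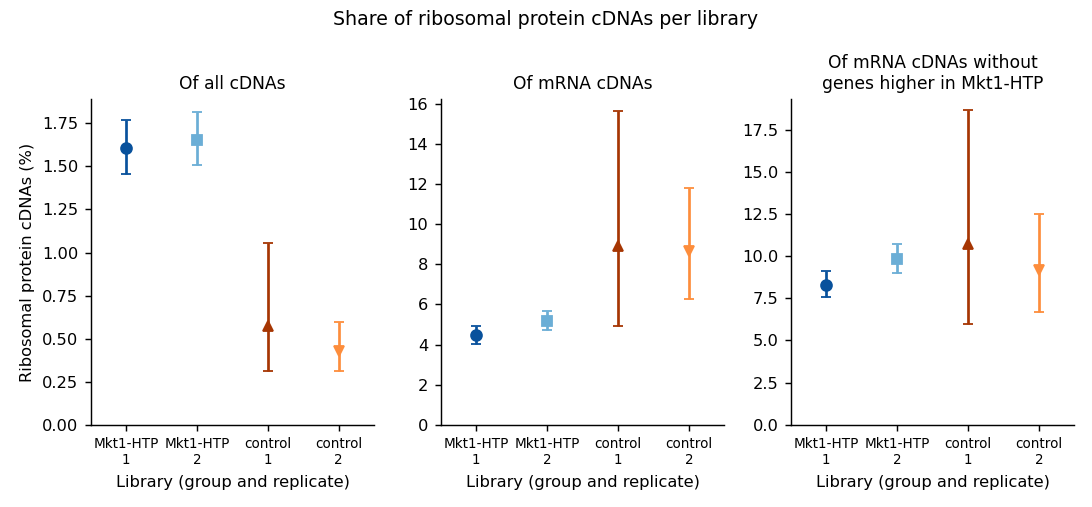
Percent of cDNAs that named a ribosomal protein gene (y axis, linear, from 0) in each of the 4 libraries (x axis), as a share of all distinct cDNAs (left), of mRNA cDNAs (middle) and of mRNA cDNAs without the 11 genes higher in Mkt1-HTP (right). Points are single libraries and bars are Wilson 95% intervals of counting error. Both Mkt1-HTP libraries lie above the control on the left (1.61% and 1.65% against 0.574% and 0.430%), below it in the middle (4.45% and 5.20% against 8.93% and 8.66%) and overlap it on the right.

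The control share rested on very few cDNAs. In control replicate 1, 6 of the 10 ribosomal protein cDNAs belonged to rps2201 and rps2202, a pair of genes for uS8 of the small subunit that no Mkt1-HTP cDNA named. These were 3 cDNAs placed at both genes, since their sequence is the same in both. The longest of them is printed to show that it fits both places, rps2201 at chrI:1162609-1162638 and rps2202 at chrI:1512162-1512191, both on the minus strand.
rps2201 and rps2202: aaatggttcgtcaatctgttctcgctgatt

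Detection differed between the replicates. In Mkt1-HTP, 77 and 70 of the 137 genes were seen, 56 of them in both libraries and 91 in either. In the control, 6 and 13 genes were seen, 1 of them (rps1802, uS13) in both and 18 in either. At least 10 cDNAs were found for 12 and 14 genes in Mkt1-HTP libraries and for 0 in either control library. The only genes with at least 10 in both Mkt1-HTP libraries were rpl8, rpl2301 and rpl1001. A gene's place in the order of levels therefore depended on the library.

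The mRNAs of large subunit proteins had the highest numbers of cDNAs. Such numbers are not per length of mRNA, and they cannot tell more contacts per mRNA from more mRNA, as no measure of mRNA abundance was used here. rpl8 (SPBC29A3.04), which encodes eL8, had 33 and 14 cDNAs in Mkt1-HTP libraries and 1 and 0 in control libraries. Scaled to a library of 1000000 cDNAs (CPM), this was 1349 and 521 in Mkt1-HTP libraries, against 574 and 0 in control libraries. The lower Mkt1-HTP library thus lay below the control library that held a single rpl8 cDNA. The mean was 935 ± 586 CPM in Mkt1-HTP (SD, n = 2), the highest of the ribosomal protein genes named alone. Its cDNAs were divided between coding sequence (17 and 9 in Mkt1-HTP) and the 3′ UTR (16 and 5).

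rpl2301 (SPAC3G9.03), for L23 of the large subunit, was the most even of the abundant members. It had 18 and 19 cDNAs in Mkt1-HTP libraries and 0 in either control library, or 721 ± 21 CPM in Mkt1-HTP (SD, n = 2). All 37 lay in coding sequence and formed 4 and 4 groups of near-identical intervals. rpl15 (SPCC576.11), one of the genes for eL15, had 30 and 6 cDNAs in Mkt1-HTP libraries and 0 in either control library, all in coding sequence. Its mean of 725 CPM therefore had an SD of 709. rpl1001 (SPBC18E5.04), for L10, had 10 and 15 cDNAs in Mkt1-HTP libraries and 0 in either control library, again all coding.

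Several large subunit mRNAs were nearly confined to Mkt1-HTP replicate 2. rpl39, for the small protein L39, had 1 and 20 cDNAs in Mkt1-HTP, rpl3202 (eL32) had 2 and 19, and rpl2701 (L27) had 2 and 15, with 0 in either control library for each. For rpl39, 13 of the 20 cDNAs of replicate 2 lay in the 3′ UTR, while the 19 of rpl3202 all lay in coding sequence. rpl901, for L9, had 4 and 16 cDNAs in Mkt1-HTP libraries, against 0 and 3 in control libraries. The reverse held for rpl701, with 14 and 4 cDNAs in Mkt1-HTP, whose product the annotation names as an L7-like ribosomal protein and RNase MRP subunit. rpl14 (eL14) was closer to even, with 11 and 7 in Mkt1-HTP. Neither rpl701 nor rpl14 had a control cDNA.

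The stalk mRNAs were sparse. All 7 stalk genes together had 9 and 5 cDNAs in Mkt1-HTP libraries, against 0 and 4 in control libraries. rpp0, the anchor of the stalk, had 5 and 4 of these in Mkt1-HTP libraries and 0 in either control library. The 4 control cDNAs all named rpp103, a P1 gene, which had 0 and 1 in Mkt1-HTP. Stalk mRNA thus gave no difference that the counts could resolve.

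Of the small subunit, the genes for protein uS2 (S0) had the most cDNAs. rps002 had 7 and 19 cDNAs in Mkt1-HTP libraries and 0 in either control library, and 17 of the 19 of replicate 2 lay in the 3′ UTR, where replicate 1 had 0. rps001 had 5 and 11 cDNAs in Mkt1-HTP libraries, against 1 and 0 in control libraries. rps102 (eS1) had 1 and 17 in Mkt1-HTP, rps801 (eS8) had 3 and 14, and rps802 (eS8) had 0 and 15, with 0 in either control library. All 5 of these were higher in Mkt1-HTP replicate 2. Others ran the opposite way and, in Mkt1-HTP, were seen in replicate 1 only. rps1502, rps2502 and rps29 of the small subunit and rpl1602 and rpl3402 of the large subunit had 10 and 0 cDNAs each in Mkt1-HTP and 0 in either control library, and rps1802 had 11 and 0, against 1 and 1.

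**Figure D2:**
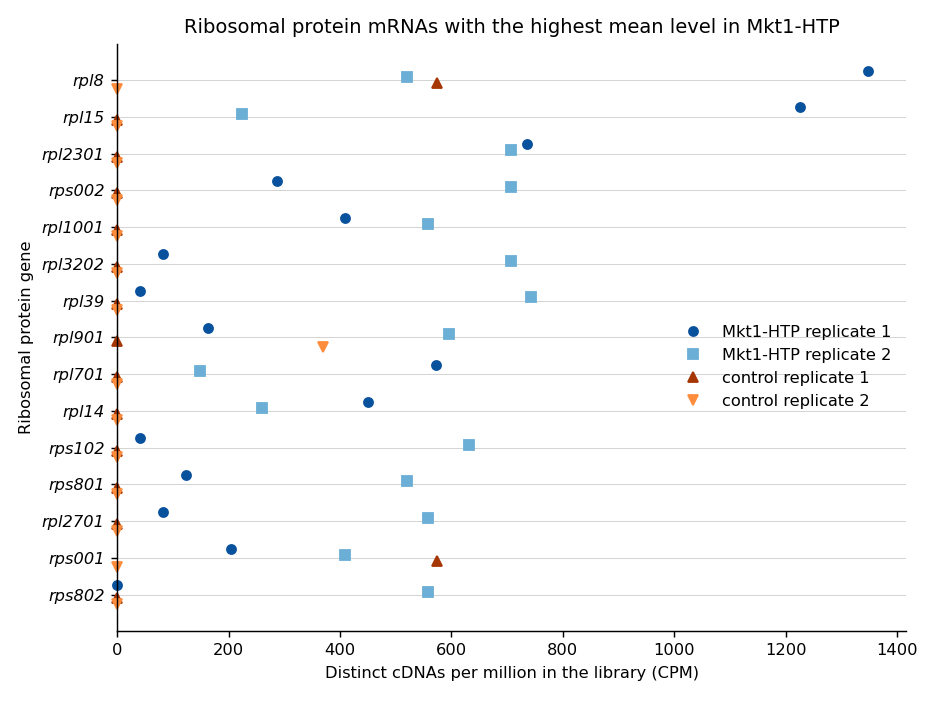
Distinct cDNAs scaled to a library of 1000000 (CPM, x axis, linear, from 0) of the 15 ribosomal protein genes with the highest mean in Mkt1-HTP (y axis, in falling order of that mean). Each mark is 1 library, with circles and squares for Mkt1-HTP and triangles for the control. The Mkt1-HTP marks of rpl2301 nearly coincide, those of rpl15, rpl39 and rps102 lie far apart, and a single cDNA sets the control mark of 574 CPM for rpl8 and rps001.

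The balance of the subunits was uneven between libraries. Large subunit mRNAs, stalk included, held 280 of 393 and 266 of 445 ribosomal protein cDNAs in Mkt1-HTP (71.2% and 59.8%), against 2 of 10 and 25 of 35 in control libraries (20% and 71.4%). The mean difference of 19.8 percentage points was smaller than the spread of the control (SD 36.4, n = 2), with a two-sided exact permutation p = 1.0. Without control replicate 1, whose small subunit cDNAs were mostly those of rps2201 and rps2202, the difference turned to -5.92. Per kilobase of annotated mRNA, the 82 large subunit genes had 204 and 176 CPM in Mkt1-HTP libraries, against 20.5 and 54.8 in control libraries. The 55 small subunit genes had 131 and 189 CPM per kilobase in Mkt1-HTP libraries, against 130 and 34.9 in control libraries. The large subunit was thus ahead per length in Mkt1-HTP replicate 1 and slightly behind in replicate 2.

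Across the 137 genes, the numbers of cDNAs in the Mkt1-HTP replicates correlated at r = 0.409 on the log2(cDNAs + 1) scale (Spearman's rho 0.439), against 0.488 (rho 0.334) across 4976 other protein-coding genes. Genes share libraries and are not independent, so these are descriptions. The place of the cDNAs agreed less often than for other mRNAs. Of the ribosomal protein cDNAs in Mkt1-HTP replicate 1, 38.2% (33.5 to 43.1) overlapped a cDNA of replicate 2, and 24.6% (20.8 to 28.8) overlapped in the other direction. For other mRNAs the values were 61.3% (60.3 to 62.4) and 61.6% (60.5 to 62.6). Other mRNAs had more cDNAs per gene, and the part of depth in this difference was not tested. Only 4 identical intervals occurred in both Mkt1-HTP libraries, of 375 and 433 distinct ribosomal protein intervals.

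**Figure D3:**
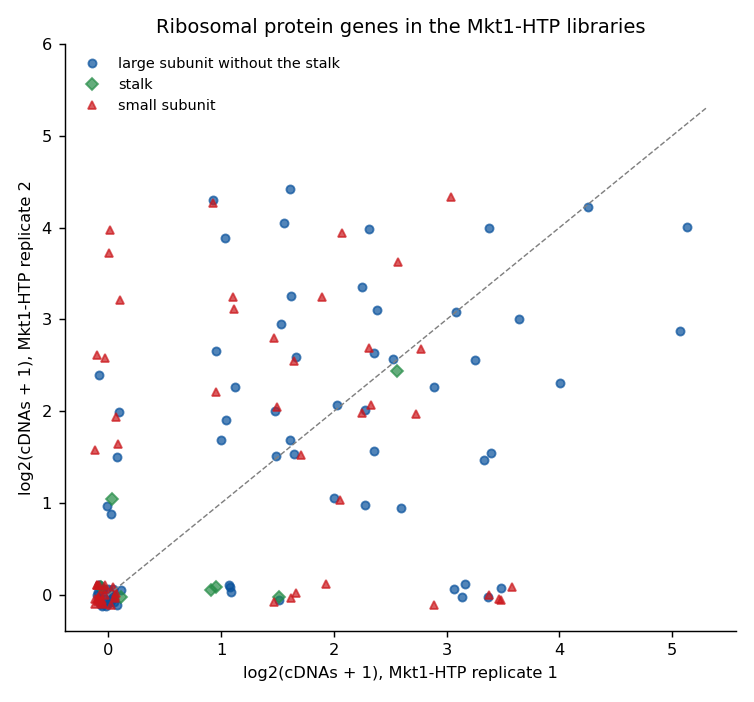
Number of cDNAs of each of the 137 ribosomal protein genes in Mkt1-HTP replicate 1 (x axis) and replicate 2 (y axis), both as log2(cDNAs + 1), with a small random shift to separate equal points and a dashed line of equality. Colours and shapes mark the large subunit without the stalk, the stalk and the small subunit. Of these genes, 56 were seen in both libraries, and many of those with 10 or more cDNAs in 1 library lie at 0 or 1 in the other.

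Single genes were then tested for a difference between the strains. Of 375 genes with at least 10 cDNAs over the 4 libraries, 36 were ribosomal protein genes. The quasi-likelihood test of edgeR, adjusted over all 375 genes after Benjamini and Hochberg, called 11 genes (2.93%) higher and 6 (1.6%) lower in Mkt1-HTP libraries, and 0 of the 36 ribosomal protein genes in either direction. At an unadjusted p under 0.05, 38 genes (10.1%) were higher, among them 2 ribosomal protein genes, rpl2301 and rpl15 (5.56% of the 36). DESeq2 also called 0 ribosomal protein genes. Of 22 of the 36 that were followed through the alternatives, only rpl8 received a DESeq2 adjusted p (0.56). The others among the 22 could therefore not be called by DESeq2. Among the alternatives run, a ribosomal protein gene was called only without control replicate 1. This was rpl8, with a fitted log2 fold change of 7.22 and an edgeR adjusted p of 0.03, once the library with its single control cDNA was left out. Without control replicate 2 the value for rpl8 was 0.69, and with libraries scaled to mRNA cDNAs it was 0.18 (edgeR adjusted p = 0.65 and 0.94). Both Mkt1-HTP libraries lay above both control libraries in CPM for 20 of the 36 (55.6%), next to 208 of all 375 tested genes (55.5%). All 20 had no control cDNA, so that standing apart only meant being seen in both Mkt1-HTP libraries. Genes without control cDNAs also passed the filter of 10 cDNAs through Mkt1-HTP alone. The likeness of these shares therefore allows no conclusion about ribosomal protein mRNAs.

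The fitted changes were large and imprecise. rpl2301 and rpl15 each had a log2 fold change of 6.48 ± 2.93 (SE, edgeR adjusted p = 0.29). With the control set to a floor of 3 cDNAs over its libraries, or 304 CPM, the mean of rpl15 was 2.39-fold and that of rpl2301 2.38-fold the floor. The floor is an assumed value, as 1 cDNA in control replicate 1 alone equals 574 CPM. These ratios are therefore no lower limits of the true change. rpl2301 exceeded the floor in both replicates. rpl15 had 223 CPM in replicate 2, below the floor, so that its ratio rested on replicate 1. For rps002, rpl1001 and rpl3202 the ratios to the floor were 1.64-fold, 1.59-fold and 1.30-fold (edgeR adjusted p = 0.38, 0.38 and 0.44). That of rpl3202 rested on replicate 2, with 82 CPM in replicate 1, as did that of rps002, with 286 CPM in replicate 1. rpl8 had a log2 fold change of 2.81 ± 1.74 (SE, edgeR adjusted p = 0.44). Over the 36 genes the median fitted log2 fold change was 4.79, next to 4.71 over all 375. Since 26 of the 36 and 215 of the 375 had no control cDNA, these medians depend on the prior count of the fit. When each such gene was set to its ratio to the floor, the median fold became 1.06 for ribosomal protein mRNAs and 1.07 for all tested genes.

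Among the genes named alone, those with the most control cDNAs gave the background of the purification. rpl502, for L5 (the 5S rRNA-binding protein), had 4 and 5 cDNAs in Mkt1-HTP libraries, against 0 and 6 in control libraries. rpl35 (L35) had 2 and 2 in Mkt1-HTP libraries, against 0 and 5. rpl302, one of the genes for L3, had 7 and 7 in Mkt1-HTP libraries, against 0 and 4. The control cDNAs of these genes all came from replicate 2, the deeper control library. The log2 fold change was -1.41 ± 1.71 for rpl502 (SE, edgeR adjusted p = 0.54) and -0.27 ± 1.73 for rpl302 (SE, edgeR adjusted p = 0.92), while rpl35 had too few cDNAs to be tested. Of the 45 control cDNAs, 3 had the same start, end and strand as a Mkt1-HTP cDNA, 1 in rps001 and 2 in rps1802.

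Paralogous genes were compared within 11 families that had at least 20 cDNAs in Mkt1-HTP. The annotated set held 56 families of at least 2 genes, of which 20 had every gene seen in Mkt1-HTP, 30 had some and 6 had none. Between paralogues, coding sequences were 66.1% to 99.6% identical (median 87.2%), while 3′ UTRs had a median identity of 34.5%. cDNAs from coding sequence can therefore fit both genes of a pair, and those from the 3′ UTR rarely. Of all 49-nt windows, about the median length of a cDNA, 6.57% in coding sequence and 0% in the 3′ UTR had an exact match elsewhere. Among the ribosomal protein cDNAs, 28 and 32 in Mkt1-HTP had such a match, against 6 and 1 in control libraries.

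In several families 1 gene held most cDNAs. rpl2301 had 18 and 19 in Mkt1-HTP libraries, and rpl2302 had 0 in every library, although their coding sequences are 88.1% identical. rpl15 had 30 and 6 and rpl1502 had 8 and 5, so that rpl15 led clearly in replicate 1 alone. rpl3202 had 2 and 19 and rpl3201 had 6 and 4, so that the order turned between the replicates. rpl701 had 14 and 4 and rpl702 had 3 and 3. For rps002 with 7 and 19 and rps001 with 5 and 11, the order was the same in both replicates. None of these 5 families had more than 1 control cDNA.

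Other families could not be resolved. All 10 and 15 Mkt1-HTP cDNAs of rpl1001 matched another place in the genome. Its paralogue rpl1002 is 97.9% identical in coding sequence and overlaps an antisense gene, so that no cDNA named it alone. By strand, rpl1002 had 14 and 14 cDNAs in Mkt1-HTP libraries, and 6 and 10 of these had the sequence of a rpl1001 cDNA of the same library. For the L3 genes, rpl301 had 9 and 2 and rpl302 had 7 and 7 in Mkt1-HTP libraries, and 8 and 2 of the rpl301 cDNAs and 7 and 1 of the rpl302 cDNAs matched elsewhere. rpl301 and rpl302 are thus uncertain as separate values. rpl901 had 4 and 16, while rpl902 was seen only by strand, with 1 and 3 cDNAs in Mkt1-HTP libraries and 0 and 2 in control libraries.

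The families of 3 genes and the eS8 pair were uneven between the replicates. rps401, rps402 and rps403, for eS4, had 0 cDNAs each in Mkt1-HTP replicate 1 and 9, 5 and 12 in replicate 2, against 0 and 0, 0 and 2, and 0 and 2 in control libraries. Of these, 8 of the 9 rps401 cDNAs and 4 of the 12 rps403 cDNAs matched elsewhere, 3 of each with the same sequence placed at 2 genomic sites, so that rps401 and rps403 are uncertain as separate values too. rpl801, rpl802 and rpl803 encode uL2 and are not paralogues of rpl8, which encodes eL8. They had 1 and 5, 4 and 8, and 1 and 4 cDNAs in Mkt1-HTP libraries and 0 in either control library. rps801 and rps802 had 3 and 0 cDNAs in Mkt1-HTP replicate 1 and 14 and 15 in replicate 2. Most of the cDNAs of these 8 genes thus came from Mkt1-HTP replicate 2.

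**Figure D4:**
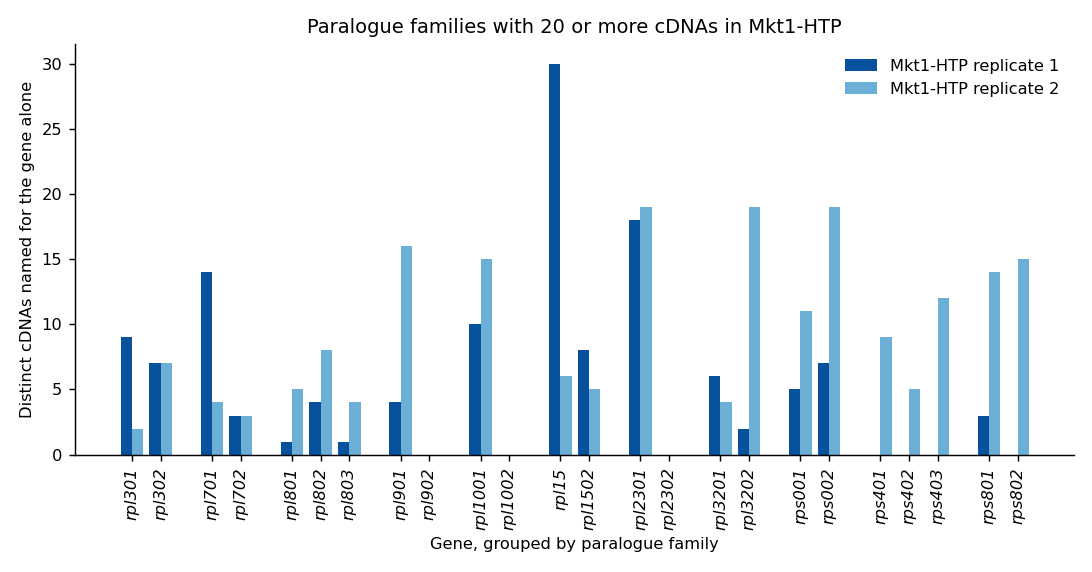
Number of distinct cDNAs that named each gene alone (y axis, linear, from 0) for the 11 paralogue families with at least 20 cDNAs in Mkt1-HTP (x axis, genes grouped by family), with dark bars for Mkt1-HTP replicate 1 and light bars for replicate 2. rpl2302 stands at 0 beside 18 and 19 for rpl2301, the rps4 genes have bars in replicate 2 only, and rpl1002 and rpl902 are at 0 because their cDNAs name a second gene as well.

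The position of the cDNAs differed between ribosomal protein mRNAs and other mRNAs in Mkt1-HTP. In the control, where cDNAs were few, the answer depended on the library and the measure. In Mkt1-HTP, 24.7% (20.7 to 29.2) and 28.7% (24.6 to 33.0) of the sense cDNAs were centred in the last 20% of the gene, against 68.5% (67.5 to 69.5) and 67.6% (66.5 to 68.6) for other mRNAs. The differences were -43.8 (95% interval -48.0 to -39.2) and -38.9 (-43.1 to -34.4) percentage points. By annotated region, 78.4% and 75.8% of ribosomal protein cDNAs lay in coding sequence in Mkt1-HTP libraries, against 30.9% and 30.4% for other mRNAs, and 20.6% and 24.2% lay in the 3′ UTR, against 66.4% and 66.8%. Once the genes called higher in Mkt1-HTP were left out, 49.95% and 50.85% of the other cDNAs were coding and 44.9% and 44.03% 3′ UTR. Ribosomal protein cDNAs thus lay mainly in coding sequence. Those of other mRNAs lay mainly in 3′ UTRs only with the called genes included.

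The annotated lengths of the mRNAs differed less than this. In the 93 ribosomal protein genes seen, 75.9% of the mRNA was coding and 20.6% was 3′ UTR, close to the shares of the cDNAs. In the 1362 other genes seen, 74.8% was coding and 16.7% was 3′ UTR. Ribosomal protein mRNAs were shorter, with a median of 667 nt against 1982 nt, and the part of length in the difference was not tested.

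The difference in position held under each of the counts below but became smaller. With near-identical intervals counted once, the last 20% held 25.4% and 29.4% of ribosomal protein cDNAs in Mkt1-HTP libraries, against 56.0% and 56.4% for other mRNAs. Against other mRNAs without the 11 called genes, which hold many 3′ cDNAs, the values for other mRNAs were 47.5% and 45.9%, with differences of -22.9 (-27.1 to -18.1) and -17.2 (-21.5 to -12.6) percentage points. With genes of at least 5 cDNAs weighted equally, the last 20% held a mean of 23.1% over 28 and 29.98% over 35 ribosomal protein genes in Mkt1-HTP libraries, against 50.4% over 295 and 45.7% over 286 other genes.

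**Figure D5:**
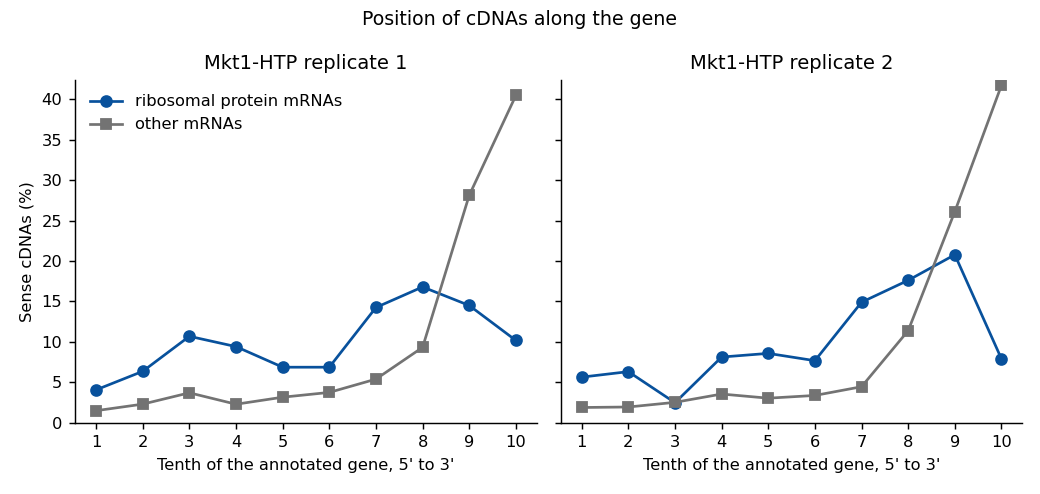
Percent of sense cDNAs (y axis, linear, from 0) whose middle lay in each of 10 equal bins of the annotated gene (x axis, 5′ to 3′, introns included) for ribosomal protein mRNAs (blue circles) and other mRNAs (grey squares) in Mkt1-HTP replicate 1 (left) and replicate 2 (right). Other mRNAs climb to 40.5% and 41.7% in the last bin, where ribosomal protein mRNAs have 10.2% and 7.90%, after their highest values of 16.8% in bin 8 and 20.8% in bin 9.

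Against the control, the position of ribosomal protein cDNAs could not be told apart. The last 20% held 24.7% and 28.7% of them in Mkt1-HTP libraries, against 30% (3 of 10) and 8.57% (3 of 35) in control libraries, a mean difference of 7.39 percentage points (two-sided exact permutation p = 1.0). Coding sequence held 78.4% and 75.8% in Mkt1-HTP libraries, against 80% and 80% in control libraries. The Mkt1-HTP values thus lay within the counting intervals of the control, which run from 10.8% to 60.3% and from 2.96% to 22.4% for the last 20%, with replicate 2 of the control as the exception. Whether ribosomal protein and other mRNAs differed within the control depended on library and measure. For the last 20%, the differences were -28.6 (-49.9 to 3.30) and -27.0 (-34.5 to -12.4) percentage points in control replicates 1 and 2. Without the 11 called genes they were -20 (-42.0 to 12.2) and -22.8 (-30.4 to -8.22). The interval of replicate 1 thus spanned both signs. For coding sequence the differences were 38.6 (6.08 to 55.6) and 11.96 (-4.58 to 23.1). For the 3′ UTR they were -33.5 (-50.7 to -1.05) and -9.13 (-18.4 to 6.50), so that here replicate 2 was unresolved. Its 3 of 35 cDNAs in the last 20% became 11 of 35 when any overlap was counted. For other mRNAs, the last 20% held 68.5% and 67.6% in Mkt1-HTP libraries, against 58.6% and 35.5% in control libraries.

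Deletions were found in 11.5% (8.669 to 14.98) and 17.8% (14.6 to 21.7) of ribosomal protein cDNAs in Mkt1-HTP libraries, against 0 of 10 and 20% (7 of 35) in control libraries. A count of 0 in 10 allows a Wilson upper bound of 27.8%. The mean difference of 4.64 percentage points was smaller than the spread of the control (SD 14.1, n = 2, two-sided exact permutation p = 1.0). For other mRNAs the share was 14.2% and 26.9% in Mkt1-HTP, so that the ribosomal protein mRNAs differed by -2.74 (-5.62 to 0.864) and -9.10 (-12.5 to -5.14) percentage points. With near-identical intervals counted once, these differences were 0.463 (-2.71 to 5.45) and -0.437 (-5.51 to 5.93).

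Of the deleted bases, U made up 44.7% (38 of 85) and 50.0% (72 of 144) in ribosomal protein mRNAs in Mkt1-HTP, next to 30.1% U in their whole mRNA sequence and 28.3% in the coding part. In control replicate 2, U made up 58.3% (7 of 12, interval 31.95 to 80.67) of the deleted bases in ribosomal protein mRNAs. Control replicate 1 had 0 deleted bases there, so that a difference in U share with the tag could not be resolved. In other mRNAs, U made up 53.2% and 55.1% of the deleted bases in Mkt1-HTP libraries. There it made up 3 of 3 in control replicate 1 and 44.4% (83 of 187) in control replicate 2. Deleted positions numbered 50 and 66 in the Mkt1-HTP libraries, with 0 shared between them, and 6 in control libraries. Every deleted position in Mkt1-HTP, those of rpl901, rps1502, rpl13, rpl401 and rps2502 included, thus came from 1 library.

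Genes that work with these mRNAs' products were described by counts. Of 11 names of ribosome-associated factors and ubiquitin fusions outside the rule, 3 genes were tested and 0 were called, with 31 and 35 cDNAs for the list in Mkt1-HTP libraries, against 2 and 5 in control libraries. ubi3 and ubi5, which encode ribosomal proteins fused to ubiquitin, had 2 and 12, and 2 and 8 cDNAs in Mkt1-HTP libraries and 0 in either control library. Ribosome biogenesis factors (44 names, 4 tested) had 30 and 53 cDNAs in Mkt1-HTP libraries, against 2 and 3. Mitochondrial ribosomal proteins (51 names, 1 tested) had 28 and 13, against 0 and 1.

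Translation factors had the most cDNAs of these lists, 144 and 123 in Mkt1-HTP libraries against 0 and 0, with 11 of 22 names tested. tef101, for elongation factor EF1A, had 26 and 23 cDNAs in Mkt1-HTP libraries and 0 in either control library (edgeR adjusted p = 0.21), and tef3, for EF3, had 21 and 20 and 0 (edgeR adjusted p = 0.28). In each of the 4 lists 0 genes were called in either direction, next to 2.93% higher and 1.6% lower over all tested genes. The median log2 fold changes were 4.60, 4.73, 5.12 and 5.397 in the order given, next to 4.71 over all tested genes.

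The remaining 44 annotated genes were not named alone. Of these, 23 had sense cDNAs that named a further gene as well, and 21 had none. The highest by strand in Mkt1-HTP were rpl4302 (eL43), with 26 and 4 cDNAs in Mkt1-HTP libraries against 1 and 0 in control libraries, and rps2602 (eS26), with 15 and 13 against 0 and 0. Next came rpl1002 (L10), with 14 and 14 against 0 and 0, and rps20, with 7 and 14 against 0 and 0. Control cDNAs were most numerous for rps2601 (eS26), with 4 and 7 in Mkt1-HTP libraries against 0 and 8 in control libraries. rpl3801 (eL38) had 0 and 7 against 0 and 2. With cDNAs assigned by strand, 45 ribosomal protein genes were tested and 0 were called, next to 12 higher and 7 lower of all 424 genes. A gene at 0 in these libraries was not detected at this depth and may still be expressed.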

How the data were processed

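CRAC libraries, 2 of Mkt1-HTP and 2 of the untagged parental strain, were compared, grouped by their titles. Per the methods, the file headers and the submitters' processing notes, the authors collapsed PCR duplicates, used STAR 2.7.1a to discard tRNA reads, aligned the rest to ASM294v2 (Novoalign 3.09.02) and counted with pyReadCounters (Counters 1.4.4). The deposited counts hold 1 row per distinct cDNA, so abundant RNAs are held back. Library totals were 24468, 26899, 1743 and 8142, and 1 control cDNA equals 574 or 123 CPM.

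Genes were taken from rows with a single gene name. Regions and sequences came from RefSeq (ASM294v3), whose gene identifiers matched 99.9% of 1700 in the files, and 100% of ribosomal protein cDNAs overlapped the gene named. Genes with 10 or more cDNAs were tested with edgeR 4.0.16 (glmQLFit, glmQLFTest, group only, common dispersion 0.843, R 4.3.3), two-sided, at an adjusted p of 0.05. The spread was pooled over the tested genes. P-values rest on 2 libraries per group. DESeq2 1.42.0, other scalings, filters, count units, a replicate block and leaving out each library were alternatives. Shares have Wilson 95% intervals (Python 3.11.15), differences between shares Newcombe intervals, and groups an exact permutation test (scipy 1.17.1). On counts simulated for the 375 tested genes of this comparison at a dispersion of 0.9, edgeR called 24 of 64 genes made 64-fold higher, 3 of 55 made 16-fold higher and 0 of 175 unchanged.

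The members, lists and tests were chosen with earlier results of these data known. The text names the 15 genes of highest mean CPM in Mkt1-HTP and the 5 with the most control cDNAs, among genes named alone. It also names any called gene and the paralogue families with 20 or more cDNAs in Mkt1-HTP. Deleted bases found in 3 or more cDNAs of each Mkt1-HTP library were to be named, and 0 met this. Other genes, and the sequences, were chosen after their values were seen. Same-numbered libraries shared a sequencing index per the labels, which pairs them. Their deviations from the group means correlated, within a number, at 0.047 over 375 genes. Adapters are assigned to replicates differently in different label fields. Replicates were not copies (chi-square per degree of freedom 5.86 in Mkt1-HTP and 4.24 in the control).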

Additional observations from a re-analysis of the deposited data

Results flagged for a closer look

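cDNAs that named a ribosomal protein gene together with another gene were outside the comparisons, and as a share of all distinct cDNAs they were more frequent in Mkt1-HTP than in the control. They were 157 cDNAs (0.642% of the library) and 138 (0.513%) in Mkt1-HTP replicates 1 and 2, against 2 (0.115%) and 12 (0.147%) in the control. Set against the mRNA cDNAs named for a single gene, they numbered 1.78 and 1.61 per 100 in Mkt1-HTP libraries, against 1.79 and 2.97 per 100 in control libraries, so that they were not more frequent in Mkt1-HTP on that scale. They came from 23 and 26 combinations of gene names in Mkt1-HTP libraries and 2 and 3 in control libraries. Assigned by strand, rpl4302, rps2602, rpl1002 and rps20 had the most of them in Mkt1-HTP, and 0 of these genes passed the edgeR test.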

How the results depend on the processing

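Depth limited most values: the control held 45 ribosomal protein cDNAs in all. The count of 0 called ribosomal protein genes was the same in all settings, including the replicate block, except without control replicate 1, where 1 was called (range 0 to 1 over left-out libraries). These settings tested unlike numbers of ribosomal protein genes. There were 36 in the main fit, 6 with near-identical intervals counted once, and 18 and 15 without Mkt1-HTP replicate 1 and 2. With the replicate block, edgeR called 5 genes of 375 higher and 3 lower, instead of 11 and 6. The median log2 fold change of the ribosomal protein genes was then 4.62. Over all genes, 20 were higher without control replicate 1, 1 without either Mkt1-HTP replicate, and 0 with libraries scaled to mRNA cDNAs, where 11 were lower. That median was 2.20 with DESeq2, 3.73 with no filter and between 5.13 and 5.65 with a library left out. The difference in the ribosomal protein share was 1.13 points over all distinct cDNAs, instead of -3.97 over mRNA.

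The difference in the last 20% (7.39 points) turned to -2.82 with near-identical intervals counted once, to -14.5 without sequences that occur elsewhere and to -3.33 without control replicate 2, and ranged up to 18.1 over left-out libraries (without control replicate 1). The large subunit difference (19.8) ranged from -5.92 without control replicate 1 to 45.5 without control replicate 2. The deletion difference (4.64) turned to -0.997 with near-identical intervals counted once and ranged from -5.36 without control replicate 1 to 14.6 without control replicate 2. The cause was not tested. Scaled to mRNA cDNAs, the log2 fold changes of rpl301, rpl901, rps001 and rps403 turned to -1.43, -2.12, -1.48 and -2.25, with edgeR adjusted p = 0.71 for each. With a library left out, rpl8 (2.81) ranged from 0.69 to 7.22 (without control replicate 1), rpl302 ranged from -0.83 (without control replicate 1) to 5.31, rps001 from -0.89 to 5.64 (without control replicate 1) and rps403 from -0.13 (without control replicate 1) to 5.03, each other end without control replicate 2. Of 226 values for 22 named genes, 218 kept their direction and side of the threshold. Most of the 22 genes had no control cDNA, so that their direction could not turn. With DESeq2 only rpl8 had an adjusted p, so that the others could not change side of the threshold there. The tally is therefore no measure of robustness. All values that turned belonged to genes with control cDNAs.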
